A study of Daphnia magna with 40 samples.

Results

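The probes described here are the 150 whose signal was highest in juvenile relative to adult Daphnia magna, of 14338 probes on the array. A probe's value on an array was its log2 processed signal after subtraction of that array's 75th percentile. Probes well above background on all 20 juvenile arrays were kept, 7372 in number, and the members were chosen by their measured values: the 150 kept probes with the largest juvenile mean minus adult mean. They are 2.03% of the kept probes and 1.05% of all probes, and are called the juvenile-enriched probes below. The stage difference chose them, so it is given as a description with no test. Changes with treatment inside a stage were not used in the choice, apart from the demand for detection on every juvenile array, and these were tested.

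Total RNA of whole animals was hybridised to 40 one-colour arrays, 4 for each combination of 2 stages and 5 treatments. FX40 animals received fluoxetine at 40 µg/L, FV10 animals fluvoxamine (spelled fluovoxamine in the labels) at 10 µg/L, and NP20 and NP60 animals nonylphenol at 20 and 60 µg/L, and each stage had a group with the acetone carrier alone. All groups, the carrier group included, received acetone at 0.1 mL/L, and all animals came from a single parthenogenetic clone, clone F. Juveniles (Neonate in the sample titles) entered the exposure before they were 1 day old, stayed in it for 3 days, and were pooled in lots of 20 animals per replicate. Exposure of adults began with gravid females aged 8 to 9 days and lasted 3 broods, or 10 to 14 days, and their eggs were washed out of the brood pouch before freezing. The labels do not say how many females made a sample or how the adult replicates were kept, so p-values in adults rest on a spread between samples that may be technical in part. The design text of the series names fluoxetine at 80 ppb and fluvoxamine at 30 ppb, and which doses apply is not settled by the sources used here.

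Daphnia magna is a freshwater crustacean whose females reproduce clonally and carry their eggs in a dorsal brood pouch. Juveniles grow through a series of moults in which the cuticle is rebuilt, while gravid adults direct resources to yolk and eggs and go on moulting between broods. Both antidepressants, fluoxetine and fluvoxamine, inhibit reuptake of serotonin by its transporter, and nonylphenol arises when alkylphenol surfactants break down. In whole animals, fewer cells of a type and less RNA per cell cannot be told apart. The probes carry IDs with no gene names, and 0 of 14338 IDs matched the RefSeq gene table of the species, so no function is given for any of them. The 150 IDs differ in their number part as well as in their suffix. A probe's signal also depends on the probe itself, so values are compared between arrays for a probe and not between probes.

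Several arrays stood apart. Juvenile FV10 A and FV10 B had the dimmest juvenile scans, with a log2 75th percentile of 7.68 on each, where the other juvenile arrays lay from 8.26 to 9.60. Adult FX40 B had the lowest level of the juvenile-enriched probes among all adult arrays, as described below. On adult acetone F and adult acetone G the lowest value was shared by 1280 and 2966 probes, of which 7 and 11 were juvenile-enriched, so these values are a floor and have no order. Up to 9.07% of the spots of an array carried an outlier mark, most on adult acetone G. The choice of members kept such spots, as its rule has no step for them, and all other values leave them out, which emptied 46 values in 38 of the 150 probes.

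The stage difference of the 150 probes had a median of 3.85 on the log2 scale, or 14.4-fold, and ran in measured values from 3.30 (9.88-fold) to 6.61 (97.9-fold). The lowest value belonged to DM02109P1, which was saturated on 16 of the 20 juvenile arrays, so its difference is at least that size, and the highest to DM07102P4, which was well above background on 11 of the 20 adult arrays. The median over the 7372 kept probes was 0.0293, and 484 of them were above 2. At the threshold, DM11550P1 (3.316) and DM02109P1 (3.304) lay just inside, and DM05856P3 (3.301) and DM10501P3 (3.299) just outside, with the value of DM02109P1 capped by saturation. The 5 largest differences belonged to DM07102P4 (6.61), DM05812P2 (6.14), DM09238P3 (5.90), DM06319P2 (5.82) and DM07683P1 (5.80). For 89 of the 150 probes the lowest juvenile value was above the highest adult value (59.3%), as it was for 252 of the 7372 kept probes (3.42%).

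Among these 5, DM06319P2 and DM07683P1 were the most even within juveniles. DM06319P2 had a lowest, median and highest value of 0.28, 2.08 and 2.79 on the juvenile arrays, against -5.94, -3.79 and -1.89 on the adult arrays. DM07683P1 had 0.57, 1.57 and 2.55 in juveniles, against -5.88, -4.29 and -2.21 in adults, the lowest being the floor of adult acetone G. It was well above background on 10 of the 20 adult arrays and DM06319P2 on 15, so their low adult values are uncertain. DM09238P3 also had no overlap between the stages, with 3.66, 5.15 and 6.09 in juveniles, against -5.92, -0.35 and 1.60 in adults.

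DM07102P4 and DM05812P2, the probes with the 2 largest differences, overlapped between the stages, with a few juvenile arrays low. DM07102P4 had 5.46, -2.41, 3.99 and -0.11 in FX40 juveniles, and a lowest, median and highest value over all 20 juvenile arrays of -2.41, 3.61 and 5.64, against -7.16, -3.45 and 0.08 in adults. In adult FV10 it lay at -5.75, -6.30, -5.84 and -5.77, a narrow range beside the other adult groups. The probe was well above background on only 11 of the 20 adult arrays, so its low adult values are uncertain. DM05812P2 had 5.59, 6.34, 0.36 and 0.01 in NP20 juveniles, 5.64, 5.44, 0.73 and 0.28 in NP60 juveniles and 5.25, 6.19, 5.94 and 1.67 in acetone juveniles. Its juvenile values therefore split inside the nonylphenol groups, with replicates C and D low and A and B high. In adults its lowest, median and highest values were -4.15, -2.08 and 0.10.

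Both ends of the scanner's range touch these probes. By the choice, all 150 were well above background on every juvenile array. In adults 51 were so on all 20 arrays (34% of the set, against 77.5% of the kept probes), 77 on 10 to 19 arrays, 21 on 1 to 9 and 1 on none. The last was DM04450P3, whose juvenile mean was -1.60 and adult mean -6.31. Its adult level is only a bound: the lowest signal well above background, or the probe's own where higher, averaged -5.49 over the adult arrays, which makes it at least 14.8-fold higher in juveniles.

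Saturation reached 67 of 3000 juvenile values and 0 adult values, and lay in 8 of the 150 probes. DM12093P2 was saturated on all 20 juvenile arrays, with a juvenile mean of 7.10 against an adult mean of 3.73, so it was at least 10.3-fold higher in juveniles. DM01549P2 was saturated on 18 juvenile arrays and DM02109P1 on 16. DM02032P3 and DM02489P2 were saturated on 4 each, DM01830P1 on 3, and DM15092P2 and DM02265P4 on 1 each. Saturation caps the juvenile value, so a treatment change in DM12093P2, DM01549P2 and DM02109P1 has no measured size in juveniles. DM02489P2, saturated on 4 juvenile arrays, had a juvenile lowest, median and highest value of 6.03, 7.24 and 7.64, against -3.58, 3.44 and 5.91 in adults. DM11005P2 and DM05162P4 were close to background in adults, where they were well above it on 1 and 2 arrays, and had juvenile medians of -2.12 and -2.02 against adult medians of -5.90 and -6.26.

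The stage difference was present under every treatment. Its median was 3.85 in FX40 (14.4-fold), 4.71 in FV10 (26.1-fold), 3.53 in NP20 (11.5-fold), 3.35 in NP60 (10.2-fold) and 3.92 in acetone (15.1-fold). All 150 probes had a difference above 1 in each of the 5 treatments, and 146 had one above 2 in each. The smallest measured difference of any of the 150 was 2.47 in FX40, 2.42 in FV10, 1.98 in NP20, 1.84 in NP60 and 1.94 in acetone, of which those in NP20 (DM12093P2) and acetone (DM02109P1) belonged to probes with saturated juvenile values and are lower bounds. The 4 juvenile values lay above the 4 adult values for 143 probes in FX40, 150 in FV10, 141 in NP20, 135 in NP60 and 145 in acetone, counts which the choice of members largely fixes. Over the kept probes the matching shares were 19.5% in FX40, 15.6% in FV10, 16.7% in NP20, 17.8% in NP60 and 17.7% in acetone. Without adult FX40 B the FX40 median was 2.72, or 6.60-fold. The median over all kept probes stayed between 0.0072 and 0.0904 in the 5 treatments.

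**Figure D1:**
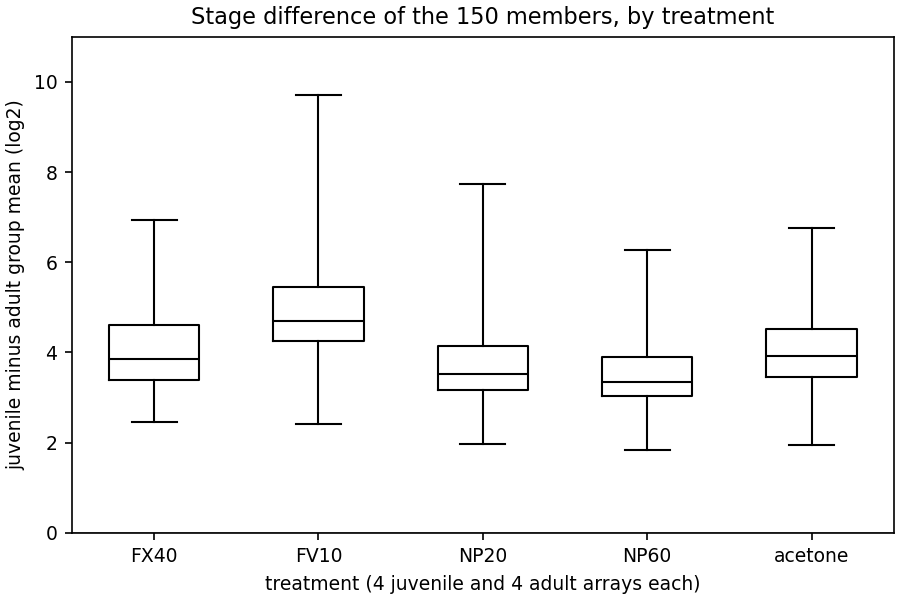
Juvenile minus adult difference of group means (log2) of the 150 juvenile-enriched probes, by treatment, with 4 juvenile and 4 adult arrays each; the line is the median, the box the quartiles and the whiskers the lowest and highest probe. FV10 has the highest median, 4.71, and NP60 the lowest, 3.35, and no whisker reaches below 1.84.

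The level of the set as a whole was steady in juveniles and uneven in adults. The array median over the 150 probes ran from 1.65 to 2.69 on the juvenile arrays, a range of 1.04, and from -4.78 to 0.14 on the adult arrays, a range of 4.92. Over the kept probes the array medians covered only -0.356 to -0.227 in juveniles and -0.805 to -0.256 in adults. In juveniles the group mean of the array medians was 2.28 ± 0.0638 in FX40, 2.05 ± 0.325 in FV10, 2.32 ± 0.223 in NP20, 2.44 ± 0.193 in NP60 and 2.35 ± 0.0897 in acetone (SD, n = 4 each). The lowest juvenile medians were 1.65 on FV10 A and 1.92 on FV10 B, the arrays with the dimmest scans, and FV10 C and D were at 2.29 and 2.34.

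In adults the group mean was -1.60 ± 2.14 in FX40, -2.89 ± 0.677 in FV10, -1.35 ± 0.980 in NP20, -1.16 ± 0.921 in NP60 and -1.69 ± 0.594 in acetone (SD, n = 4 each). The 4 FV10 medians, -2.39, -2.54, -3.88 and -2.75, all lay below the 4 acetone medians, -2.06, -2.31, -1.28 and -1.09. The FX40 group held the lowest adult median, -4.78 on FX40 B, beside -0.18, -0.89 and -0.55 on the other arrays. Without FX40 B its mean was -0.54 ± 0.354 (SD, n = 3).

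On adult FX40 B, 85 of the 150 probes had their lowest adult value. Of the kept probes 7.87% had their lowest and 18.1% their highest adult value on that array. Its scan was not dim, with a log2 75th percentile of 8.44 and 82.7% of all probes well above background, and 89 of the 150 probes were well above background there. Adult NP60 C stood at the other end, with a median of 0.14, the highest adult value of 45 of the 150 probes, and 147 of them well above background. Both arrays were on the same slide.

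**Figure D2:**
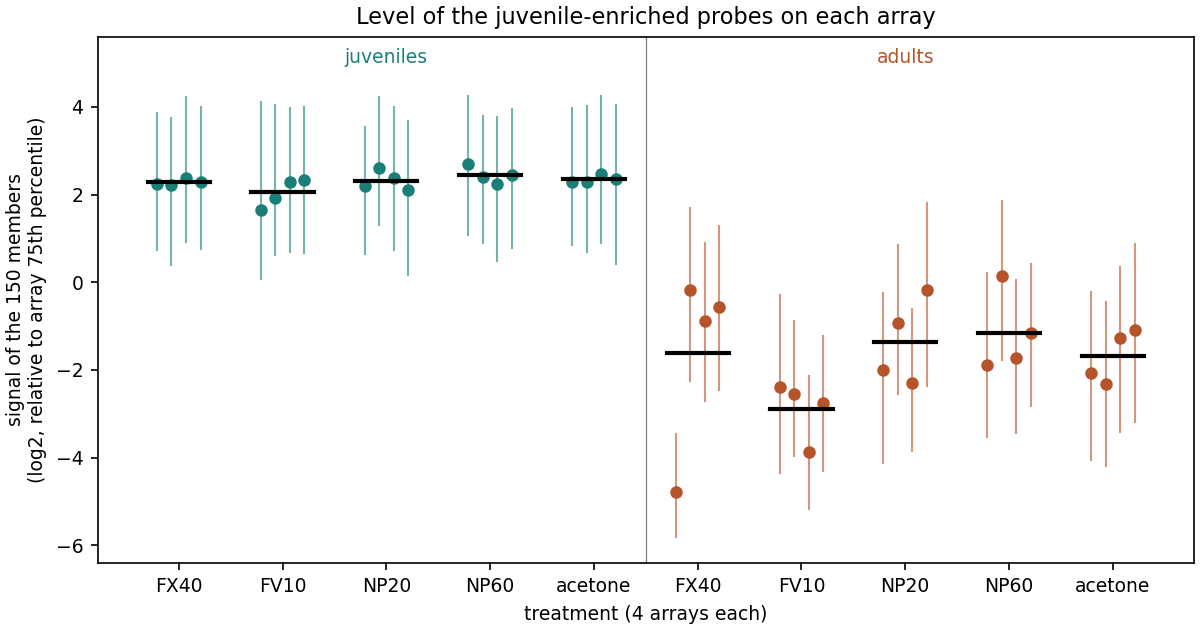
Level of the 150 juvenile-enriched probes on each array (log2 signal relative to the array's 75th percentile), by stage and treatment with 4 arrays each; points are medians over the 150 probes, vertical lines the quartiles and horizontal bars the mean of the 4 medians. Juvenile medians stay between 1.65 and 2.69, and adult medians run from -4.78 (FX40 B) to 0.14 (NP60 C).

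The same contrast held probe by probe. The SD between like-treated arrays, pooled over the 5 groups of a stage, had a median of 0.517 in juveniles and 1.45 in adults over the 150 probes. Over the kept probes the medians were 0.469 in juveniles and 0.514 in adults. The adult SD exceeded the juvenile SD in 138 of the 150 probes, against 60.4% of the kept probes. The choice demanded detection on every juvenile array, made no such demand in adults, and favoured low adult means. It may therefore fix part of this contrast, and of the contrast in level above. The kept probes share the demand for detection but not the ranking. In juveniles 52 of the 150 lay above the upper quartile of the kept probes, 0.639, and 16 above their 95th percentile, 1.08, and in adults 138 and 60 lay above the matching values of 0.816 and 1.61. Among probes well above background on all adult arrays the adult medians were 1.45 for the 51 juvenile-enriched probes and 0.449 for the 5716 kept probes. Without adult FX40 B the adult median over the 150 was 1.08, against 0.504 over the kept probes. With normexp background correction, which adds an offset of 50 before the log, the median over the 150 was 0.637 in juveniles and 0.746 in adults, and over the kept probes 0.553 in juveniles and 0.527 in adults. The wider adult spread was thus much smaller on that scale.

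DM07499P1 shows the contrast at its widest. On the juvenile arrays it ran only from 5.01 to 5.83, with a pooled SD of 0.212, while on the adult arrays it ran from -4.82 (FX40 B) to 4.56 (NP20 G), with a pooled SD of 2.93, the largest adult SD of the 150. In adult NP20 its values were 0.70, 3.83, -2.38 and 4.56, and in adult FV10 -2.73, 0.49, -2.34 and -3.27. Replicates of a treatment thus differed by several log2 units in adults, with the probe well above background on all 20 adult arrays. DM02813P3 had the next largest adult SD, 2.88, and in adult FX40 it had -5.68, 3.39, 5.00 and 5.59. DM03357P1 had the smallest juvenile SD, 0.209, with a juvenile range from 3.56 to 4.24 and an adult SD of 0.910.

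A few probes went the other way. DM05812P2 and DM12711P4 had the largest juvenile SDs, 2.42 and 2.37, with adult SDs of 1.06 and 0.993. DM12711P4 had 2.79, 3.39, -3.07 and -2.77 in NP20 juveniles, 2.12, 2.17, -2.14 and -2.75 in NP60 juveniles and 2.15, 2.65, 2.64 and -1.87 in acetone juveniles, so the same arrays were low as for DM05812P2. The smallest adult SDs, 0.530 for DM12746P3 and 0.549 for DM04450P3, belonged to probes well above background on 2 and 0 adult arrays.

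**Figure D3:**
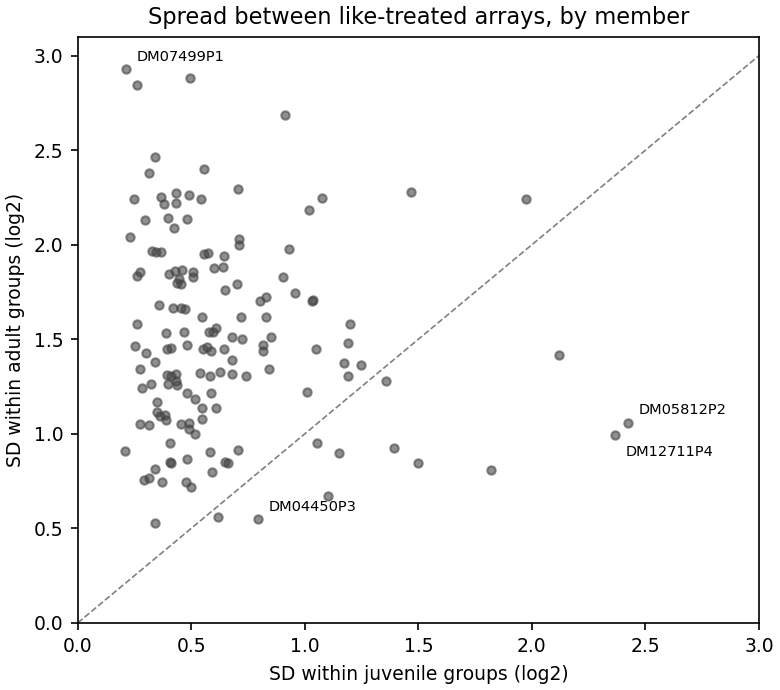
SD between like-treated arrays (log2, pooled over the 5 groups of a stage) for each of the 150 juvenile-enriched probes, juveniles on the horizontal and adults on the vertical axis, with the dashed line marking equality. Of the 150 points 138 lie above the line; DM05812P2 and DM12711P4 lie far below it.

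The probes moved together between arrays, more so in adults. Over the residuals from the group means on the 20 arrays of a stage, the median correlation between a pair of the 150 probes was 0.0989 in juveniles, with 59.2% of pairs above 0, and 0.584 in adults, with 92.1% above 0. Over pairs of kept probes the medians were 0.0162 in juveniles and 0.0147 in adults. Pairs on the same arrays share scan, scaling and sample, so these are descriptions. Without adult FX40 B the adult median was 0.426. With normexp correction the medians over the 150 were 0.311 in juveniles and 0.537 in adults, so the gap between the stages was smaller on that scale. The leading component of the residuals held 64.3% of the variance in adults, with 146 of the 150 loadings of the same sign.

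In juveniles the leading component held 47.6% of the variance and split the set into 68 probes with a positive and 82 with a negative loading. The median pair correlation was 0.274 among the 68, 0.388 among the 82 and -0.127 between them. In adults the same 68 and 82 probes moved together, with a median of 0.566 between them. Juvenile acetone D had a median of 1.03 over the 68 probes and 2.90 over the 82, where acetone A, B and C had 2.34, 2.62 and 2.56 over the 68 and 2.22, 2.15 and 2.39 over the 82. NP20 D (1.20 and 2.53) and NP60 C (1.29 and 2.63) were like acetone D, and FX40 A (2.43 and 2.04) and NP20 A (2.48 and 1.78) were the reverse. NP20 thus held arrays of both patterns, and the acetone D, NP20 D and NP60 C arrays were on slides 1, 4 and 6. The split followed the replicate letter in part. On the leading component replicate D was negative in every treatment (-0.39 to -0.11) and replicate A positive (0.06 to 0.32). Replicates B and C held both signs. The split was made on these values and has no test.

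**Figure D4:**
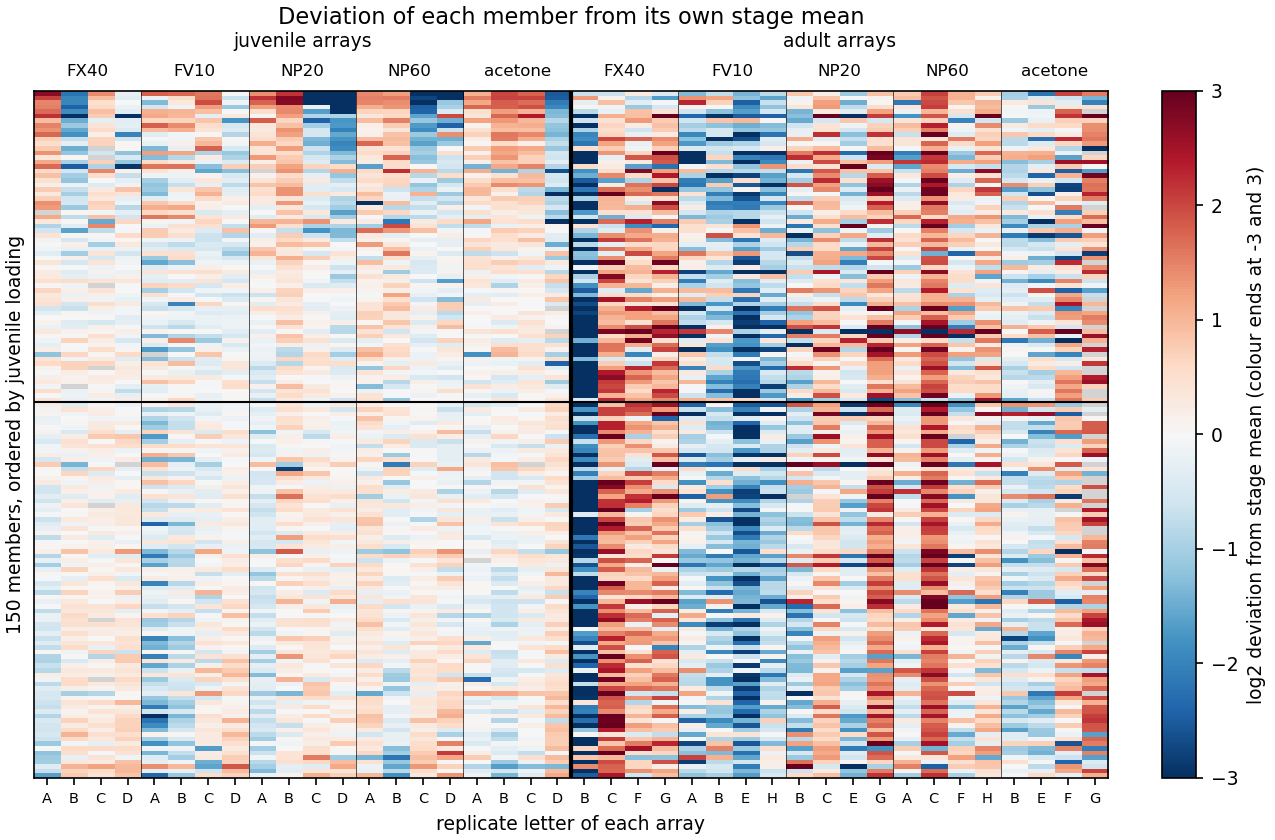
Deviation of each of the 150 juvenile-enriched probes (rows) from its own mean over the stage, on each array (columns, labelled by replicate letter within treatment), in log2 units with colours ending at -3 and 3 and empty values in grey. Rows are ordered by their loading on the leading juvenile component and the horizontal line divides the 68 positive from the 82 negative loadings; adult FX40 B is low and adult NP60 C high over most rows.

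Most of this variation lay between like-treated arrays. The share of a probe's variance that lay between the 5 treatments had a median of 22.8% in juveniles and 23.6% in adults over the 150 probes, against 29.5% and 24.1% over the kept probes. The range of the 5 group means had a median of 0.735 in juveniles, against 0.741 over the kept probes, and exceeded 1 in 39 of the 150 (26% against 30.0%). In adults it had a median of 1.92, against 0.728, and exceeded 1 in 140 (93.3% against 32.2%). Group means of few arrays differ through the spread between like-treated arrays alone, so neither this range nor the share above measures treatment by itself. In adults that spread was wider for the 150 than for the kept probes (median SD 1.45 against 0.514). FV10 had the lowest adult group mean in 120 of the 150 probes and NP60 the highest in 71, while in juveniles FV10 had the lowest in 66 and acetone the highest in 44. Matching shares over the kept probes were not computed. The probes also moved together in adults, so these counts are not separate results.

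Each treatment was then compared with acetone in each stage by limma with Benjamini-Hochberg adjustment over all probes tested. A probe passed at an adjusted p under 0.05. The 4 comparisons of a stage share the same 4 acetone arrays. Tests were limited to probes detected well above background on 4 or more arrays of the stage, so all 150 were tested in juveniles and 146 in adults. The median 95% half-width of a change was about 0.770 on the log2 scale in juveniles and 2.03 in adults, so that in adults only changes of several fold could be measured.

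In FV10 juveniles 4 of the 150 probes passed, 1 higher and 3 lower than in acetone juveniles, which is 2.67% of the set where 7.92% of all 12880 tested probes passed. At an unadjusted p under 0.05 there were 28 (18.7%), where all tested probes gave 26.5%. The median change was -0.25 over the 150 probes, with 54 above 0, beside 0.20 over all tested probes. With normexp correction it was -0.04 beside -0.17 over all tested probes, so that relative to all probes the 150 then lay 0.14 higher in place of 0.45 lower. The groups did not overlap for 1 higher and 9 lower of 145 probes with complete values (6.90%), where 11.8% of all probes did not overlap. The set therefore held no larger share of changed probes than the array as a whole.

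DM04077P2 was the probe that rose in FV10 juveniles. It had 4.32, 4.32, 4.16 and 4.13 in FV10, against 3.69, 3.30, 3.07 and 3.57 in acetone, with no overlap. The log2 change was 0.82 (SE 0.233, 1.77-fold, adjusted p = 0.0397 by limma). It was higher than the mean of the acetone arrays on all 4 FV10 arrays, and in adult FV10 it had -1.29, -1.58, -1.45 and -1.95, within the adult acetone range of -1.98 to -0.38.

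DM10914P3, DM07410P2 and DM04892P2 fell. DM10914P3 had 1.08, 1.50, 1.69 and 1.87 in FV10 juveniles, against 2.35, 2.40, 2.89 and 3.09 in acetone juveniles, and the values did not overlap (log2 change -1.15, SE 0.280, adjusted p = 0.0262 by limma). It is named beside the rule for named probes, after its values were seen, because it completes the 4. DM07410P2 had -0.12, 0.15, 1.32 and 1.23 in FV10, against 1.89, 2.15, 2.04 and 1.69 in acetone, again with no overlap and with the dimly scanned arrays A and B lowest (log2 change -1.30, SE 0.362, adjusted p = 0.0377 by limma). DM04892P2 had 1.24, 1.74, 2.17 and 1.63 in FV10, against 3.18, 3.84, 3.75 and 2.03 in acetone, and acetone D fell inside the FV10 range (log2 change -1.50, SE 0.440, adjusted p = 0.0446 by limma).

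These 4 calls were lost in most of the 19 alternatives run for each probe, while the direction was kept in all. The call was lost in 14 for DM04077P2, 14 for DM04892P2, 13 for DM07410P2 and 11 for DM10914P3. There the change ran from 0.71 to 1.09 for DM04077P2, from -1.26 to -0.67 for DM10914P3, from -1.52 to -0.67 for DM07410P2 and from -1.89 to -1.01 for DM04892P2. The FV10 scans had a log2 75th percentile of 7.68, 7.68, 8.64 and 8.26, and the acetone scans 9.60, 8.83, 8.60 and 8.48. With that brightness as a covariate, with slide as a block, with the arrays of these 2 groups only, or after normexp correction, 0 of the 150 passed, and 1 to 5 probes of the whole array. Leaving out FV10 A, FV10 B, acetone A or acetone C also left 0. Leaving out acetone B or acetone D left 1 (0.667%), where 8.42% or 3.16% of all tested probes passed. Leaving out FV10 C or FV10 D gave 17 or 7 (11.3% or 4.67%, where 19.3% or 9.99% of all tested probes passed). With A and B of FV10 both left out it was 0. Slides 1 and 7 each held 1 FV10 and 1 acetone juvenile array. Within them the change was 0.59 and 0.63 for DM04077P2, -1.40 and -0.85 for DM10914P3, -0.37 and -1.73 for DM07410P2, and 0.14 and -1.43 for DM04892P2, whose sign thus differed between the slides. The median over the 150 was -0.28 and -0.33 there, and the part of brightness in the calls was not tested further.

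**Figure D5:**
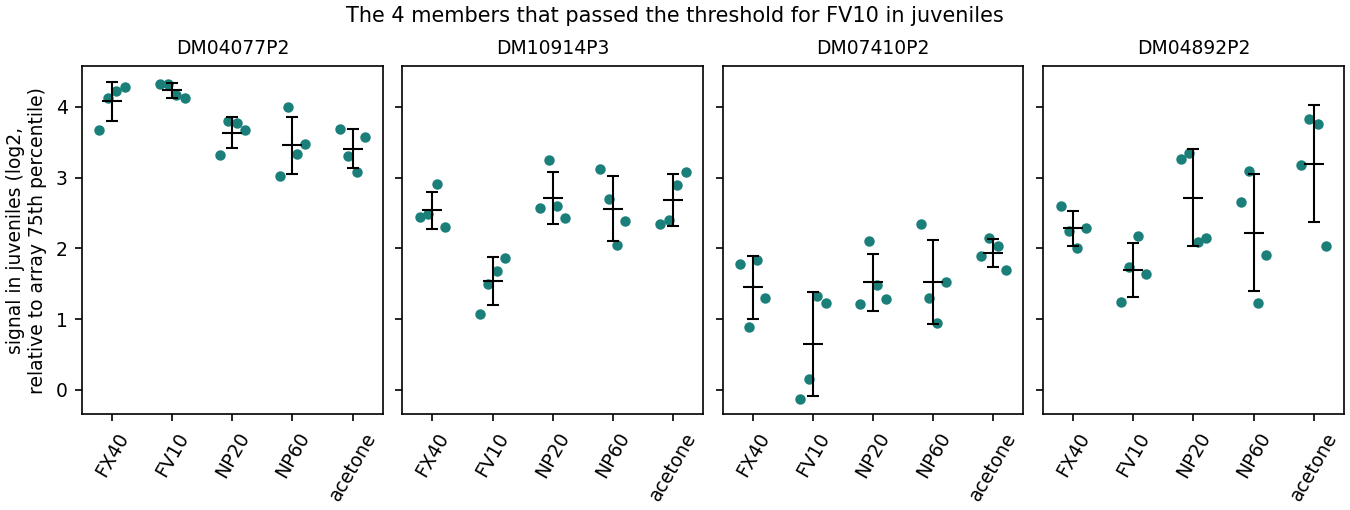
Signal of the 4 juvenile-enriched probes that passed the threshold in FV10 juveniles (log2, relative to the array's 75th percentile), in all 5 juvenile groups; points are the 4 arrays of a group, and bars the mean and SD. DM04077P2 is higher and DM10914P3 and DM07410P2 lower in FV10 than in acetone with no overlap, while for DM04892P2 an acetone array at 2.03 falls among the FV10 arrays.

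In FX40 juveniles 0 of the 150 passed, where 0.00776% of all tested probes did. At an unadjusted p under 0.05 there were 6, or 4%, where all probes gave 8.42%. The median change was -0.05 with 65 probes above 0, and 2 higher and 4 lower of 137 probes did not overlap (4.38%, where all probes gave 6.64%). In NP20 juveniles 0 passed, where 0% of all probes did, and 5 had an unadjusted p under 0.05 (3.33%, where all probes gave 5.97%). Of the 150 changes 66 were above 0, with a median of -0.05, and 2 higher and 1 lower of 145 did not overlap (2.07%, where all probes gave 3.60%). In NP60 juveniles 0 passed, where 0% of all probes did, and 4 had an unadjusted p under 0.05 (2.67%, where all probes gave 5.40%). Changes were above 0 in 75 of the 150, with a median of 0.00, and 0 higher and 1 lower of 146 did not overlap (0.685%, where all probes gave 3.32%).

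DM08519P3 had the smallest p of the 150 in each of these 3 comparisons, which share their acetone arrays. It had 2.79, 2.29, 2.39 and 3.35 in FX40, 2.19, 1.90, 4.08 and 2.97 in NP20, 1.74, 2.63, 3.03 and 3.93 in NP60, and 4.51, 4.43, 4.15 and 4.12 in acetone. The acetone values were close together and above all values of the 3 treatments. The log2 change was -1.60 in FX40 (SE 0.479, adjusted p = 0.354 by limma), -1.52 in NP20 (adjusted p = 0.798) and -1.47 in NP60 (adjusted p = 0.671), none past the threshold. In FV10 juveniles it had 2.99, 3.63, 4.59 and 3.90.

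In adult FV10 0 of the 146 tested probes passed, where 0% of all 12547 tested probes did. At an unadjusted p under 0.05 there were 24, or 16.4%, where all probes gave 8.11%. The median change from acetone was -1.14, with 22 of 146 above 0, beside 0.09 over all tested probes. Of 118 probes with complete values 23 were lower in FV10 with no overlap and 0 higher (19.5%, where all probes gave 4.81%). Slides 2 and 7 each held 1 FV10 and 1 acetone adult array, and within them the median was -1.31 and -1.13. Leaving out single arrays gave medians from -1.32 to -0.77. With normexp correction the median was -1.12, but over all tested probes it was then -0.68, so that relative to all probes the 146 lay 0.44 lower in place of 1.22 lower.

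DM06880P3 had the smallest p in adult FV10. It had -3.43, -3.96, -5.22 and -3.14 in FV10, against -1.89, -2.57, -1.94 and -1.09 in acetone, with no overlap, and was well above background on 1 of 4 FV10 and 4 of 4 acetone arrays (log2 change -2.06, SE 0.541, adjusted p = 0.484 by limma). DM02489P2 had 0.09, 1.34, -0.38 and -0.69 in adult FV10, against 2.95, 2.59, 3.09 and 5.11 in adult acetone, and DM12093P2 had 1.22, 2.48, 0.82 and 0.67, against 3.55, 3.37, 4.36 and 6.30. Both were detected above background on each of the 20 adult arrays, were not saturated in adults, and did not overlap between the groups. DM02489P2 and DM12093P2 were named for their saturation or signal, and their adult changes did not pass the threshold. DM01549P2 and DM02109P1 were named in the same way. DM01549P2 had 1.35, 3.66, 1.73 and 1.35 in adult FV10, against 2.47, 2.31 and 2.26 in adult acetone, with overlap. DM02109P1 had a mean of 2.76 (SD 1.49) in adult FV10 and of 4.76 (SD 1.35) in adult acetone.

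In adult FX40 0 of 146 passed, where 0.383% of all tested probes did, and 6 had an unadjusted p under 0.05 (4.11%, where all probes gave 14.9%). The median change was -0.01, with 71 above 0, but without FX40 B it was 0.99, with 132 above 0, and 0 still passed. Of 118 probes 1 was higher with no overlap and 0 lower (0.847%, where all probes gave 7.48%). DM08384P3 had the smallest p, with -1.69, -1.43, -2.30 and -1.47 in FX40, against -2.34, -1.87, -3.06 and -5.88 in acetone, the last being the floor of that array (log2 change 1.56, SE 0.602, adjusted p = 0.220 by limma). With normexp correction its change was -0.70.

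In adult NP20 0 of 146 passed, where 0% of all probes did, and 6 had an unadjusted p under 0.05 (4.11%, where all probes gave 16.0%). Changes had a median of 0.24, with 92 above 0, and 3 higher and 1 lower of 118 did not overlap (3.39%, where all probes gave 6.98%). That median was -0.11, with 64 above 0, without NP20 G, and 0.53, with 115 above 0, without acetone G. With normexp correction it was -0.39 beside -0.58 over all tested probes. DM07683P1 had the smallest p, with -2.88, -3.48, -3.72 and -2.36 in NP20, against -4.61, -5.39, -4.42 and -5.88 in acetone. It was well above background on 4 of 4 NP20 arrays and 0 of 4 acetone arrays. Its measured means thus differed by at least 2.53-fold, a bound that allows for background but not for the spread between arrays. The 95% interval of the log2 change was 0.69 to 3.24 (adjusted p = 0.149 by limma), and the probe did not pass. With normexp correction the log2 change was -0.54.

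In adult NP60 0 of 146 passed, where 0% of all probes did, and 7 had an unadjusted p under 0.05 (4.79%, where all probes gave 6.62%). The median change was 0.49, with 120 above 0, and 3 higher and 0 lower of 118 did not overlap (2.54%, where all probes gave 4.16%). Without NP60 C the median was 0.10, with 82 above 0. With normexp correction it was -0.35 beside -0.78 over all tested probes. DM05883P1 had the smallest p, with 0.21, -0.30, 0.49 and -0.70 in NP60, against -3.23, -2.30, -1.51 and -1.45 in acetone, with no overlap (log2 change 2.05, SE 0.685, adjusted p = 0.726 by limma). In adult FV10 the same probe had -2.53, -3.52, -2.72 and -1.97, overlapping the acetone values.

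Whether a treatment changed these probes differently in juveniles and adults was tested with a moderated F test over the 4 stage by treatment terms in a fit of all 40 arrays. Of the 150 probes 0 passed, where 0.0376% of all 13281 tested probes did, and 9 had an unadjusted p under 0.05 (6%, where all probes gave 11.3%). For FV10 alone 0 of the 150 passed, where 3.12% of all tested probes did. The median juvenile change minus adult change was 0.00 for FX40, 0.91 for FV10, -0.37 for NP20 and -0.39 for NP60, beside 0.03, 0.04, 0.01 and 0.05 over all tested probes in the same order. Without adult FX40 B the FX40 median was -1.09, and 51 of the 150 had an unadjusted p under 0.05, where 1691 of all 13281 did. In that fit 3 of the 150 passed the F test, where 48 of all 13281 probes did. For FV10 alone 6 of the 150 then passed, where 535 of all 13281 did. With normexp correction the medians were 0.79, 1.02, 0.61 and 0.44, beside 0.64, 0.60, 0.09 and 0.66 over all tested probes. Those of NP20 and NP60 thus changed sign, but the median over all tested probes also moved. Relative to all tested probes NP60 stayed lower with the correction, while NP20 went from lower to higher. Only the FV10 median was above 0 in each of these 3 fits. DM03859P2 had the smallest p (adjusted p = 0.0984 by limma). It had 1.00, 0.85, -0.18 and -0.30 in FV10 juveniles, against -0.86, -0.21, -0.73 and -1.40 in acetone juveniles, and -5.89, -5.65, -5.40 and -4.85 in adult FV10, against -5.87, -4.76, -3.94 and -2.88 in adult acetone. It was well above background on 9 of 20 adult arrays, so its adult values are uncertain.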

How the data were processed

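Total RNA of whole animals was amplified, labelled with the dye Cy3 and hybridised to one-colour arrays, per the labels' protocols. Scanned images were read with Agilent Feature Extraction 10.7.3.1, per the file headers, and the deposited scanner files hold an intensity per spot on a linear scale, of which the processed signal is already background-subtracted. The authors' deposited table of the whole series holds log2 values with scale and centring unstated. Its columns followed the scanner values after quantile normalization of log2 signals within a stage and centring of each probe on its median (correlation 0.964 to 1.00 per array, column medians from -0.0984 to 0.106). Each array held 15744 spots, 15208 of them not controls, for 14338 probes, of which 870 were spotted more than once. The 75th percentile of the processed intensity was 204.7 to 773.6 in juveniles and 76.9 to 484.6 in adults, and the number of arrays limits the precision. The highest correlation between arrays was 0.9739, so none was taken as a duplicate.

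The 75th percentile over non-control spots was subtracted from each array's log2 processed signals, with spots of a probe averaged and saturated spots kept. Outlier spots entered the choice of members and were left out elsewhere. limma 3.58.1 in R 4.3.3 (lmFit, eBayes) was fitted to the 20 arrays of a stage, or to all 40 for the interaction, on probes well above background on at least 4 arrays, and was tested on simulated data. The members and the rule for naming probes were chosen with earlier results of these data known. That rule took the 5 largest stage differences, the probes either side of the threshold, the 2 extremes of juvenile signal, spread and saturation, and, per comparison, up to 2 rises and 2 falls or else the smallest p. No gene list could be used, since no probe carries a gene name. Alternatives were normexp (offset 50, on median signals, as means are not given), quantile normalization, the authors' table, no filter, outlier spots kept, the arrays of the 2 groups only, the replicate letter, slide and array weights, and each array left out. Brightness as a covariate, leaving out arrays that stood apart, and a choice on acetone arrays with detection on all juvenile arrays were added after seeing the data. The 7 slides each had a single scan. The recurring replicate letters did not count as pairs (their check is in the closing section).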

Additional observations from a re-analysis of the deposited data

Results flagged for a closer look

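In 12 of 264 groups of 4 values, covering 26 named probes and the median over the 150 probes, an array lay further from its like-treated neighbours than Dixon's 95% limit allows; chance gives about 1 in 20 groups. Adult FX40 B accounted for 5 of them. There the median over the 150 probes was -4.78, where the other FX40 adults lay from -0.89 to -0.18. DM02109P1 was -3.74 (others 4.63 to 5.88), DM02489P2 -3.58 (others 3.90 to 5.18), DM03357P1 -1.60 (others 1.17 to 1.23) and DM05883P1 -3.21 (others 0.23 to 0.35) on the same array.

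Among the other adult groups, DM01549P2 was 3.66 on FV10 B (others 1.35 to 1.73) and DM08384P3 -1.98 on FV10 H (others -2.73 to -2.62). DM03859P2 was -6.04 on NP20 B (others -4.03 to -3.62), and DM11550P1 was 1.79 on NP60 C (others 0.32 to 0.49). In juveniles, DM05812P2 was 4.16 on FV10 D (others 5.76 to 5.98), DM04450P3 -4.40 on NP20 B (others -1.61 to -1.53) and DM12711P4 -1.87 on acetone D (others 2.15 to 2.65). The cause was not tested for any of them.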

How the results depend on the processing

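The count of 4 of the 150 probes in FV10 juveniles was 0 with normexp correction, with the arrays of the 2 groups only and with brightness as a covariate. It was also 0 with slide as a block and when both dimly scanned FV10 arrays were left out. With array weights it was 1 (0.667%), where 4.81% of all tested probes passed, and leaving out each array in turn gave 0 to 17. With quantile normalization 1047 probes of the whole array passed there, 511 higher and 536 lower, where the main values gave 676 higher and 344 lower. In adult FX40, where 0 had passed, 42 of 146 (28.8%) passed with normexp correction, all lower, while 61.3% of all tested probes passed and their median moved to -0.94, and 5 (3.42%) with array weights, where 7.74% of all did. In adult FV10 1 (0.685%) passed with array weights, where 0.287% of all did, and that probe was higher than in acetone. In adult NP60 26 (17.8%) passed with normexp correction, where 44.7% of all did. For the stage by treatment test, 1 passed with quantile normalization, 4 with array weights, and 0 to 3 with each array left out, 3 of them without adult FX40 B, where 39, 346 and, without adult FX40 B, 48 of all 13281 probes passed. The rule applied to normexp values shared 91 of the 150 probes, and on acetone arrays only 95, while the other alternatives shared at least 106. All 150 stayed higher in juveniles with normexp correction, at a median difference of 2.76. The median adult SD was 0.746 with normexp correction. DM08384P3 in adult FX40 (-0.70) and DM07683P1 in adult NP20 (-0.54) changed sign with normexp correction. The cause was not tested for these.

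No pairing by replicate letter was assumed. The check used all tested probes, not the 150 alone, whose leading juvenile component had opposite signs on replicates A and D. Same-letter arrays deviated together in 11 of 40 juvenile pairs and 9 of 20 adult pairs (correlation over 0.1, medians -0.00567 and 0.0867). Different-letter arrays did so in 25 of 120 juvenile and 33 of 140 adult pairs (medians -0.00641 and -0.0277). With the replicate block 3 of the 150 probes (2%) passed in FV10 juveniles, where 6.82% of all tested probes did. In the other 7 comparisons and in the stage by treatment test 0 passed. The stage by treatment fit gave juvenile and adult arrays of the same letter a shared term, so it did not adjust for replicate within a stage. Within adults the replicate block moved the median change from -0.01 to -0.72 in FX40 and from -1.14 to -0.77 in FV10. In adult NP20 the median moved from 0.24 to -0.08 and in adult NP60 from 0.49 to -0.23. Precision in adults was limited by the spread between arrays, with a median 95% half-width of a change of 2.03. On each adult array 51 of the 150 probes passed the scanner's background test. The median adult SD was 1.45 over these 51 and 1.45 over the 150, and the part of low signal in the precision was not tested.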
